A study of Oryza sativa with 18 samples.

Results

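The type-A response regulators of rice were followed in callus of 3 lines and of the indica cultivar Teqing. These genes were chosen by locus number, and all 10 loci (OsRR1, OsRR2, OsRR3, OsRR4, OsRR5, OsRR6, OsRR7, OsRR9, OsRR10 and OsRR11) were found among the 28211 numbered loci of the pCPL and the pOE tables. The YIL25 table ends early on chromosome 3, after chromosomes 1 and 2. It holds 7685 loci, and 4 of the 10 genes (OsRR2, OsRR3, OsRR4 and OsRR11) are in it. The other 6 were not analysed here in YIL25.

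Cytokinins are plant hormones that drive cell division and shoot formation, and they are a standard tool in plant tissue culture. Histidine kinase receptors bind them and pass a phosphate through phosphotransfer proteins to response regulators in the nucleus. Type-B response regulators are transcription factors that switch on cytokinin-responsive genes. Type-A response regulators are short proteins with a receiver domain and no DNA-binding domain. They are among the genes that type-B regulators switch on, and most of them dampen the response, so that their transcripts are commonly read as a sign of cytokinin signalling.

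YIL25 is an introgression line with segments of a common wild rice (O. rufipogon) on the short arms of chromosomes 2, 3 and 5 in the Teqing background, and it carries the wild allele of BOC1, a gene the study linked to browning of callus. pCPL is Teqing with the genomic BOC1 fragment of YIL25 under its own promoter. pOE is Teqing with the BOC1 reading frame of YIL25 under a Ubiquitin promoter, which is active in most tissues. A separate group of Teqing libraries goes with each line. These groups are Teqing1 for YIL25, Teqing2 for pCPL and Teqing3 for pOE, and every group holds 3 libraries, 18 in all. The callus was sampled after 21 days of subculture, grown in darkness on a medium with the auxin 2,4-D. The sources used here do not give how many independent transgenic plants stood behind the pCPL and pOE libraries, and YIL25 differs from Teqing at more genes than BOC1.

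Levels are FPKM as the authors deposited them, that is, fragments scaled to the length of the gene and the size of the library. The library sizes that these values imply ran from 16400794 to 43388099. They were estimated from the FPKM values and are not counts of fragments. BOC1 itself was at 102, 100 and 103 FPKM in pCPL, against 58.0, 57.5 and 57.4 FPKM in Teqing2, and at 577, 576 and 584 FPKM in pOE, against 64.7, 68.4 and 63.3 FPKM in Teqing3. OsBBM1, an embryogenesis gene that marks such callus, stood at 70.8 to 77.8 FPKM in pCPL and 81.7 to 87.5 FPKM in Teqing2. It stood at 38.8 to 42.7 FPKM in pOE and 40.9 to 44.4 FPKM in Teqing3. Its mean in Teqing3 was 0.509 times that in Teqing2. Of 6 genes of green tissue, the small subunit genes of Rubisco (RBCS) stood at 0 to 0.898 FPKM in the libraries of pCPL, pOE, Teqing2 and Teqing3. The summed level of the 6 was 15.7 to 17.0 FPKM in pCPL against 59.6 to 70.4 FPKM in Teqing2, and 9.34 to 10.2 FPKM in pOE against 54.1 to 56.6 FPKM in Teqing3. A chlorophyll-binding protein gene (LOC_Os09g17740) fell in both lines, to 12.3 FPKM in pCPL, against 54.9 FPKM in Teqing2, and to 3.02 FPKM in pOE, against 49.0 FPKM in Teqing3, while another (LOC_Os01g41710) rose in pOE. For the 2 of the 6 that the YIL25 table holds, the sum was 11 to 12.5 FPKM in YIL25, against 11.4 to 13 FPKM in Teqing1. The part of this difference in the results on the response regulators was not tested, nor can fewer cells of a type be told apart from less RNA per cell. The 4 seed storage protein genes (glutelins) summed to 3.98 to 5.37 FPKM in pCPL, against 5.41 to 7.59 FPKM in Teqing2, and to 3.15 to 4.82 FPKM in pOE, against 3.67 to 4.37 FPKM in Teqing3. The 3 of them that the YIL25 table holds summed to 0.503 to 1.08 FPKM in YIL25, against 0.0460 to 0.173 FPKM in Teqing1. Among them LOC_Os01g55690 rose in pCPL, with 1.39 FPKM against 0.202 FPKM in Teqing2, and LOC_Os10g26060 was lower there at an adjusted p under 0.05, with 3.39 FPKM against 6.50 FPKM in Teqing2. LOC_Os02g15070 was at 0 in every library. The part of the glutelin differences in the results was not tested.

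All tests were made within a table, between a line and the Teqing group that goes with it, with limma on log2(FPKM + 1). A gene was tested where the mean of at least 1 of the 2 groups exceeded 1 FPKM. Genes were said to rise or fall at the thresholds of the study, a fold change of 2 on this scale and a Benjamini-Hochberg adjusted p under 0.001. A weaker threshold, an adjusted p under 0.05 with no fold, was also read. Of the 10 genes, 8 passed the filter on low values in pCPL and pOE, and 3 of the 4 in YIL25. OsRR7 and OsRR11 did not. For genes with low levels this scale gives fold changes that are too small.

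In YIL25 callus, 2 of the 3 type-A genes tested, OsRR2 and OsRR3, fell, and none rose. Over all 8196 genes tested there, 12.7% fell and 8.41% rose (21.1% in either direction). The numbers were 1041 that fell and 689 that rose, and with median-of-ratios scaling, which shifts the median of all genes in YIL25 by 0.17, they were 773 and 865. OsRR2 and OsRR3 fell under both scalings. In pCPL, none of the 8 genes reached the threshold, where 7.84% of all 21659 genes rose and 5.97% fell (13.8% in either direction). In pOE, 1 of the 8, OsRR3, rose and none fell, where 6.95% of all 22122 genes rose and 8.90% fell (15.8% in either direction). The weaker threshold was passed by 3 of 3 genes in YIL25 (72.7% of all genes), by 6 of 8 in pCPL (70.6%) and by 4 of 8 in pOE (72.1%), so that at this threshold the counts lie on both sides of those for all genes. By direction, 3 genes were lower and 0 higher in YIL25, where 43.2% and 29.5% of all genes were, 4 were higher and 2 lower in pCPL (35.0% and 35.6% of all genes), and 2 were higher and 2 lower in pOE (35.3% and 36.8%). The groups did not overlap for 3 of the 3 genes in YIL25 (76.4% of all genes), for 6 of the 8 in pCPL (74.2% of all genes) and for 6 of the 8 in pOE (75.1%). The median log2 fold change of the type-A genes tested was -1.48 in YIL25, 0.22 in pCPL and 0.05 in pOE, against -0.13, -0.01 and 0.00 over all genes.

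**Figure D1:**
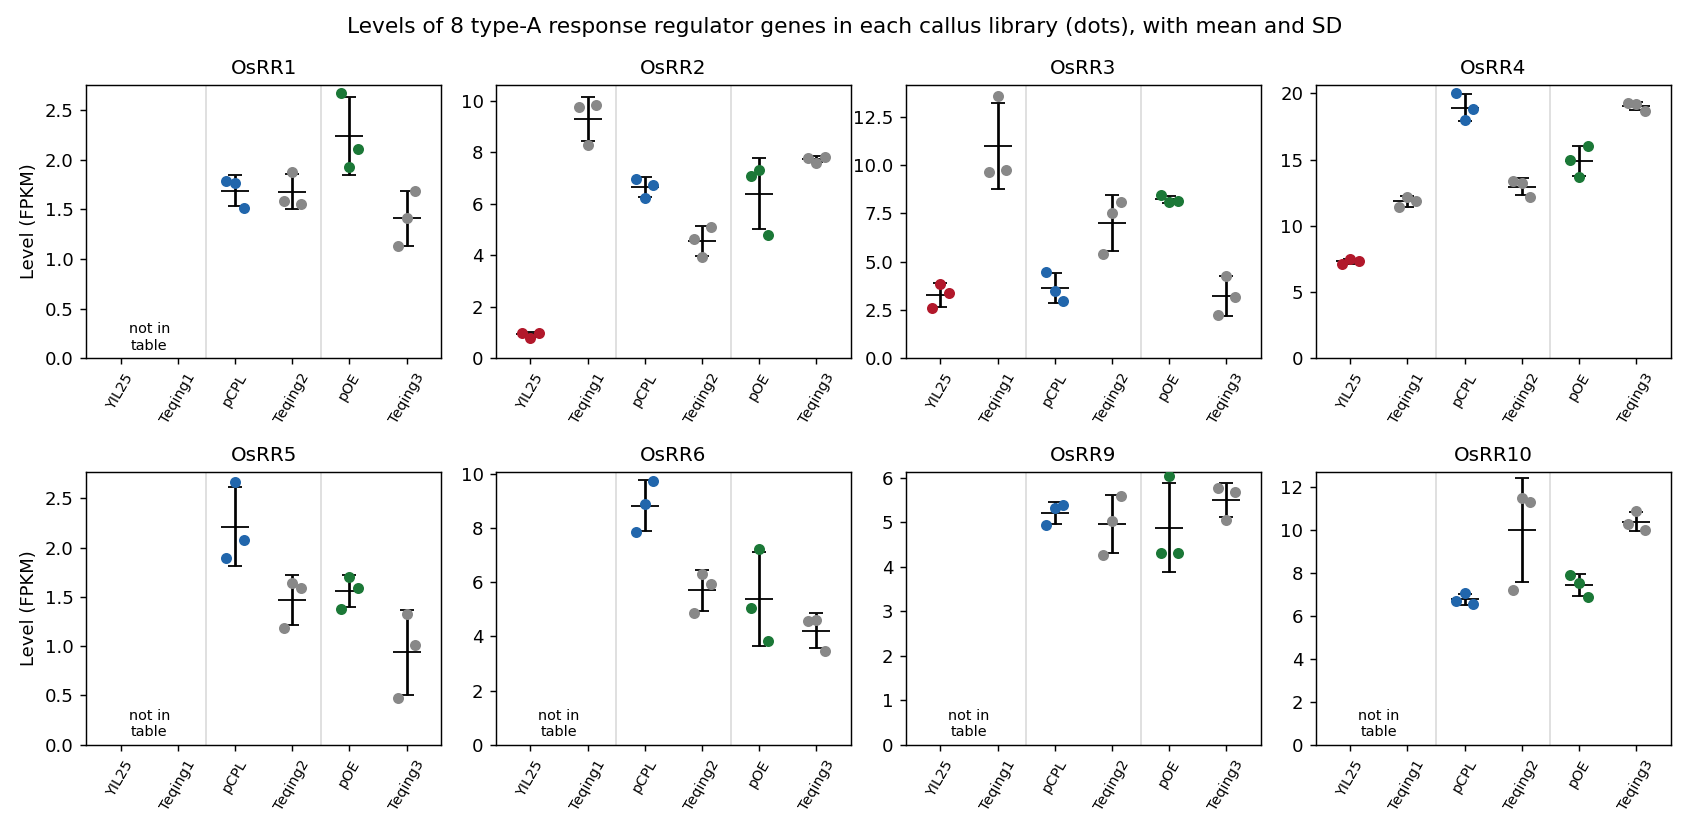
Level in FPKM (vertical axis, from 0, with its own range in each panel) of the 8 type-A genes that passed the filter, 1 dot per library, with the mean (horizontal mark) and SD (bars) of 3 libraries. Each line stands left of its own Teqing group, and OsRR2 in YIL25 lies between 0.795 and 0.991 FPKM, below every other library.

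OsRR4 (LOC_Os01g72330, chromosome 1 from 41948952 to 41952388 in the IRGSP-1.0 coordinates of the authors) was the most abundant of the 10 type-A genes, with a mean of 16.5 FPKM over the 12 libraries of the pCPL and pOE tables. Its level was 20, 18.0 and 18.8 FPKM in pCPL, against 13.4, 13.2 and 12.2 FPKM in Teqing2. The standard error (SE) is that of the fit. Every pCPL library lay above every Teqing2 library, and the log2 fold change was 0.52 (SE 0.0633, adjusted p = 5.69e-05 by limma), which passed the weaker threshold but not the fold of 2. In pOE it was at 15.0, 13.7 and 16 FPKM, against 19.3, 19.2 and 18.7 FPKM in Teqing3. Here every library of the line was below its Teqing group, with a log2 fold change of -0.34 (SE 0.0660, adjusted p = 0.00125 by limma). In YIL25 it was at 7.14, 7.47 and 7.30 FPKM, against 11.4, 12.2 and 11.9 FPKM in Teqing1, and the log2 fold change was -0.63 (SE 0.0546, adjusted p = 6.53e-05 by limma). OsRR4 was thus higher in pCPL and lower in pOE and YIL25 at the weaker threshold, by less than a fold of 2 in each. The effect in YIL25 differed from that in pCPL by -1.15 (SE 0.0863, adjusted p = 1.13e-08 by limma), or by -0.97 with median-of-ratios scaling, and the effect in pCPL differed from that in pOE by 0.86 (SE 0.0901, adjusted p = 6.35e-07 by limma).

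OsRR4 made up 61.7 to 66.2% of the summed FPKM of the 4 type-A genes listed in YIL25, against 35.8 to 37.9% in Teqing1. Over all 10 genes it made up 33.6 to 36.6% in pCPL, against 23.7 to 31.5% in Teqing2, and 25.5 to 33.5% in pOE, against 35.3 to 37.5% in Teqing3. The groups do not overlap in any of these pairs. The summed type-A level was 10.8, 12.1 and 11.7 FPKM in YIL25, against 30.8, 34.1 and 31.5 FPKM in Teqing1, for 4 genes. For all 10 genes it was 54.5, 53.6 and 53.7 FPKM in pCPL, against 42.5, 51.0 and 51.4 FPKM in Teqing2. In pOE the sum was 52.2, 53.7 and 47.7 FPKM, against 51.6, 54.4 and 51.5 FPKM in Teqing3. The sums of pOE and Teqing3 overlap.

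OsRR2 (LOC_Os02g35180, chromosome 2 from 21128650 to 21131368) is a type-A gene that the homeobox factor WOX11 is known to repress in emerging crown roots of rice. It was at 0.970, 0.795 and 0.991 FPKM in YIL25, against 9.75, 8.30 and 9.83 FPKM in Teqing1. The mean was 0.919 ± 0.107 FPKM in YIL25 and 9.29 ± 0.859 FPKM in Teqing1 (SD, n = 3 libraries), a ratio of 0.0988. The log2 fold change was -2.42 (SE 0.10, adjusted p = 2.59e-06 by limma), larger in size than that of 97.1% of all genes tested in YIL25. Since the levels of YIL25 lie under 1 FPKM, the log2 ratio of the FPKM means, -3.34, is larger than the fitted fold change. The reads recovered from the FPKM were 61, 57 and 66 in YIL25, against 616, 551 and 579 in Teqing1, so the low level did not rest on a handful of reads.

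The fall of OsRR2 was seen in YIL25 alone among the 3 comparisons. In pCPL it was at 6.97, 6.24 and 6.75 FPKM, against 4.62, 3.93 and 5.11 FPKM in Teqing2, with a log2 fold change of 0.47 (SE 0.101, adjusted p = 0.00240 by limma). In pOE it was at 7.08, 7.30 and 4.8 FPKM, against 7.77, 7.59 and 7.81 FPKM in Teqing3, and this difference of -0.26 (SE 0.132) did not pass the test (limma, adjusted p = 0.107). Replicate 3 of pOE lay well below the other libraries of its group, and without it the difference was -0.09. Without replicate 2 of pOE it was -0.35 and passed the weaker threshold (adjusted p = 0.0493 by limma). The effect in YIL25 differed from that in pCPL by -2.89 on the log2 scale (SE 0.139, adjusted p = 4.98e-11 in a limma fit over 5556 loci) and from that in pOE by -2.16 (SE 0.169, adjusted p = 8.48e-09 over 5561 loci). Of all loci, 19.0% and 37.8% differed in these tests at the same thresholds.

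The genes around OsRR2 were read as well. Within 500 kb on either side, a window chosen after the values were seen, 12 of the 80 other genes tested in YIL25 fell and 7 rose, and 15.0% that fell compares with 12.7% of all genes. Around OsRR3, 10 of 93 neighbours (10.8%) fell and 8 (8.60%) rose in YIL25, against 12.7% and 8.41% of all genes. Around OsRR4, 19 of 95 neighbours fell, a larger share than the 12.7% of all genes. Only 1 of them (1.05%) rose, against 8.41% of all genes. The differences between these shares were not tested.

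OsRR3 (LOC_Os02g58350, chromosome 2 from 35689553 to 35690346) is known to lower cytokinin sensitivity when it is overexpressed in rice. It was the one type-A gene that reached the threshold in 2 comparisons, and it did so in opposite directions. In YIL25 it was at 2.62, 3.84 and 3.40 FPKM, against 9.64, 13.6 and 9.76 FPKM in Teqing1. It fell by 1.48 on the log2 scale (SE 0.162, adjusted p = 2.02e-04 by limma), and every YIL25 library was below every Teqing1 library. Without replicate 3 of YIL25 the log2 fold change was -1.5 with an adjusted p of 0.00121 (limma), which missed the threshold. With the trend on gene length removed the log2 fold change in YIL25 was -1.01, just past the fold of 2.

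In pOE, OsRR3 was at 8.46, 8.11 and 8.13 FPKM, against 2.23, 4.27 and 3.16 FPKM in Teqing3. Its mean was 8.24 ± 0.194 FPKM in pOE and 3.22 ± 1.02 FPKM in Teqing3 (SD, n = 3 libraries), a ratio of 2.56, and the log2 fold change was 1.16 (SE 0.158, adjusted p = 1.28e-04 by limma). It fell short of a fold of 2 without replicate 1 of Teqing3 (0.98) and with the trend on gene length removed (0.99). In pCPL, OsRR3 was at 4.46, 3.5 and 2.94 FPKM, against 5.39, 7.50 and 8.12 FPKM in Teqing2, with a log2 fold change of -0.78 (SE 0.159, adjusted p = 0.00157 by limma). The effects in pCPL and pOE differed by -1.94 (SE 0.243, adjusted p = 4.00e-06 in a limma fit over 19766 loci, of which 32.8% differed), and those in YIL25 and pOE by -2.64 (SE 0.228, adjusted p = 2.84e-08).

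The Teqing groups were themselves far apart for OsRR3. Its mean in Teqing3 was 0.460 times that in Teqing2, and the 3 lines and 3 Teqing groups, ordered by level, ran Teqing1, pOE, Teqing2, pCPL, YIL25 and Teqing3. In that order pOE overlapped Teqing2, and pCPL, YIL25 and Teqing3 formed an overlapping run. Set against Teqing2, with no test because the tables were normalized separately, the log2 difference of pOE was 0.22, and that of pCPL against Teqing3 was 0.15. The lower level of OsRR3 in pCPL thus held against Teqing2 and not against Teqing3, whose libraries overlapped those of pCPL. The size in pOE fell to a fraction of its value. OsRR3 has the shortest gene model of the 10, with 396 bases, and its counts were low, 72, 72 and 75 reads in the pOE libraries.

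**Figure D2:**
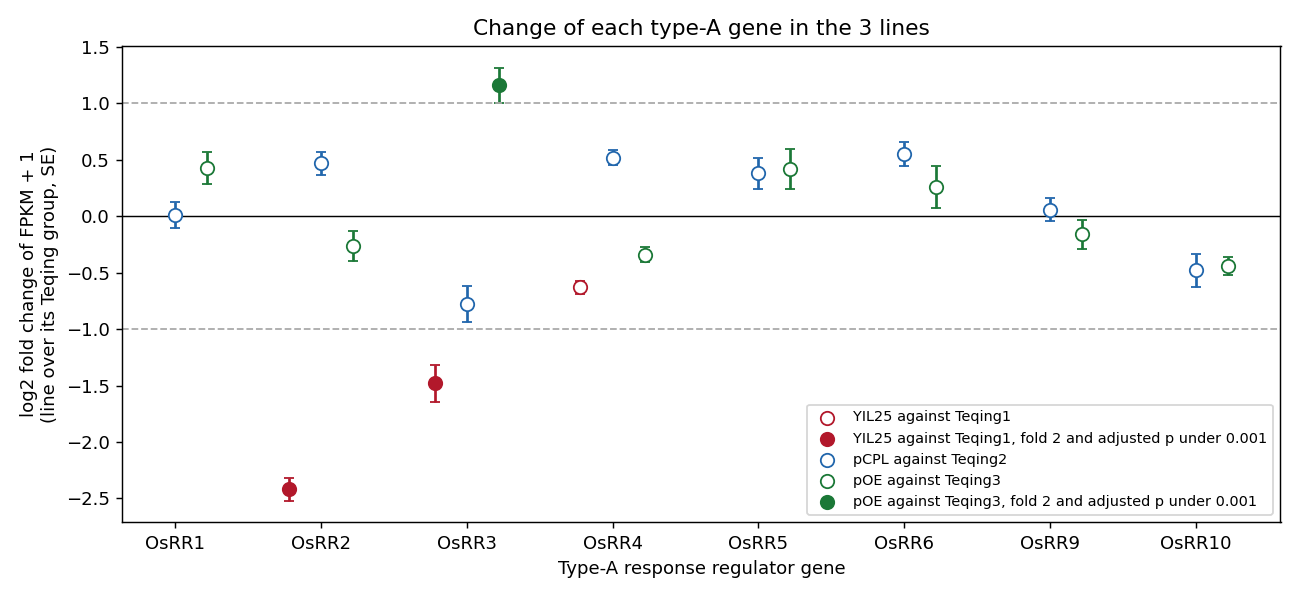
Fitted log2 fold change of FPKM + 1 of each line over its own Teqing group (vertical axis, bars: standard error) for the 8 type-A genes tested. Dashed lines mark a fold of 2, and filled symbols, past that fold and an adjusted p of 0.001, are OsRR2 (-2.42) and OsRR3 (-1.48) in YIL25 and OsRR3 (1.16) in pOE.

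OsRR6 (LOC_Os04g57720, chromosome 4 from 34375978 to 34377092), whose overexpression is known to make rice less responsive to cytokinin, was at 7.84, 8.89 and 9.72 FPKM in pCPL, against 4.86, 6.31 and 5.92 FPKM in Teqing2. The groups did not overlap, and the log2 fold change of 0.55 (SE 0.108, adjusted p = 0.00128 by limma) passed the weaker threshold. In pOE it was at 5.06, 7.24 and 3.82 FPKM, against 4.56, 4.61 and 3.46 FPKM in Teqing3, and these groups overlapped (0.26, adjusted p = 0.223 by limma). With single libraries left out this value ranged from 0.06 without replicate 2 of pOE to 0.45 without replicate 3 of pOE, where it passed the weaker threshold (adjusted p = 0.0399 by limma). The difference between the effects in pCPL and pOE did not pass the test for OsRR6 (0.29, standard error 0.231, adjusted p = 0.264 by limma), but it passed the weaker threshold without replicate 2 of pOE (0.49, adjusted p = 0.0304 by limma).

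OsRR5 (LOC_Os04g44280, chromosome 4 from 26227217 to 26228435) and OsRR1 (LOC_Os04g36070, chromosome 4 from 22023832 to 22027680) were weakly expressed. OsRR1 is a target of the crown root factor CRL5 in rice. OsRR5 was at 1.89, 2.66 and 2.08 FPKM in pCPL, against 1.18, 1.64 and 1.59 FPKM in Teqing2, a log2 fold change of 0.38 (SE 0.137, adjusted p = 0.0335 by limma) that missed the weaker threshold with replicate 2 or 3 of pCPL or replicate 1 of Teqing2 left out (0.28, 0.40 and 0.29). In pOE it was at 1.38, 1.70 and 1.59 FPKM, against 0.477, 1.33 and 1.01 FPKM in Teqing3, which missed the weaker threshold (0.42, adjusted p = 0.0530 by limma) although the groups did not overlap, and passed it without replicate 2 of Teqing3 (0.57, adjusted p = 0.0169 by limma). An alternative fit on the recovered reads, by voom, gave OsRR5 1.02 in pOE (adjusted p = 0.0276) and 0.53 in pCPL (adjusted p = 0.124). OsRR1 was at 2.68, 1.93 and 2.11 FPKM in pOE, against 1.13, 1.41 and 1.69 FPKM in Teqing3, a log2 fold change of 0.43 (SE 0.140, adjusted p = 0.0213 by limma) that missed it without replicate 1 of pOE (0.33) or replicate 1 of Teqing3 (0.34). In pCPL it was at 1.79, 1.77 and 1.51 FPKM, against 1.59, 1.88 and 1.56 FPKM in Teqing2, and the means of 1.69 and 1.68 FPKM differed by less than the spread of the libraries.

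OsRR9 (LOC_Os11g04720, chromosome 11 from 2013415 to 2015355) and OsRR10 (LOC_Os12g04500, chromosome 12 from 1915773 to 1917702) lie in the duplicated ends of chromosomes 11 and 12 and are near-identical copies, known as regulators that lower salt tolerance in rice. The sources do not give how the authors assigned reads that match both, so their separate levels are uncertain. OsRR10 was at 6.69, 7.07 and 6.56 FPKM in pCPL, against 7.20, 11.5 and 11.3 FPKM in Teqing2, and at 7.90, 7.53 and 6.88 FPKM in pOE, against 10.3, 10.9 and 10 FPKM in Teqing3. It was lower at the weaker threshold in pCPL (-0.48, standard error 0.149, adjusted p = 0.0163 by limma) and in pOE (-0.44, standard error 0.0783, adjusted p = 7.48e-04 by limma). In pCPL it missed that threshold without replicate 2 or 3 of Teqing2 (-0.37 and -0.38). The test of the difference between these effects, -0.04 (SE 0.180), gave an adjusted p of 0.846 (limma).

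OsRR9 was at 4.93, 5.33 and 5.38 FPKM in pCPL, against 4.27, 5.03 and 5.58 FPKM in Teqing2, and at 4.31, 6.03 and 4.30 FPKM in pOE, against 5.76, 5.05 and 5.69 FPKM in Teqing3. Its groups overlapped in both comparisons. The difference in pOE was -0.16 (adjusted p = 0.285 by limma), and -0.29 without replicate 2 of pOE, which passed the weaker threshold (adjusted p = 0.0330 by limma). Summed over both copies, the level was 12 ± 0.394 FPKM in pCPL and 15.0 ± 3.04 FPKM in Teqing2 (SD, n = 3 libraries), a log2 fold change of -0.28 (limma, adjusted p = 0.0695). In pOE the sum was 12.3 ± 1.2 FPKM, against 15.9 ± 0.215 FPKM in Teqing3, a log2 fold change of -0.35 (limma, adjusted p = 0.00224). The sum therefore passed the weaker threshold in pOE (SE 0.0748) and not in pCPL (SE 0.125). Whether these effects on the sum differ between the lines was not tested.

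OsRR7 (LOC_Os07g26720, chromosome 7 from 15440889 to 15442180) had 4, 2 and 1 reads in the pOE libraries and 0 in every library of Teqing3, pCPL and Teqing2. Its pooled level in pOE was 0.168 FPKM (exact Poisson interval 0.0675 to 0.346 FPKM), against an upper end of that interval of 0.0859 FPKM for the 0 reads of Teqing3. These intervals overlap, which is not a test, and the difference between pOE and Teqing3 was not tested. The pooled level in pOE was 2.41 times the level that 3 reads over the group would give in Teqing3. For the 0 reads of pCPL and Teqing2 the upper ends were 0.118 and 0.101 FPKM. These intervals pool 3 libraries and cover counting error only. OsRR11 (LOC_Os02g42060, chromosome 2 from 25286967 to 25287842) had no more than 1 read in any library. No difference between groups was detectable for OsRR11 at this depth.

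Levels of the type-A genes also differed between the Teqing groups, which were of 1 cultivar but were normalized in separate tables. The mean in Teqing3 was 1.69 times that in Teqing2 for OsRR2 and 1.48 times for OsRR4, and it was 0.638 times for OsRR5 and 0.740 times for OsRR6. For OsRR9 and OsRR10 the ratios were 1.11 and 1.04. The order of the groups for OsRR4 was Teqing3, pCPL, pOE, Teqing2, Teqing1 and YIL25, where Teqing3 and pCPL overlapped and every other pair of neighbours did not. For OsRR2 it was Teqing1, Teqing3, pCPL, pOE, Teqing2 and YIL25, where pCPL overlapped pOE and pOE overlapped Teqing2. Set against Teqing3, the difference of pCPL was -0.19 for OsRR2 and -0.01 for OsRR4, and set against Teqing2, that of pOE was 0.40 for OsRR2 and 0.19 for OsRR4. For OsRR2 in both lines and OsRR4 in pOE, these directions are opposite to those within each table. For OsRR4 in pCPL, which overlapped Teqing3, the difference was close to none.

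For OsRR6, pCPL came first and was set apart from Teqing2, pOE and Teqing3, which overlapped in turn. For OsRR5 the order was pCPL, pOE, Teqing2 and Teqing3, with a gap only after pCPL. OsRR1 ran pOE, pCPL, Teqing2 and Teqing3, with a gap only after pOE. The groups overlapped from neighbour to neighbour for OsRR9 and for OsRR10. The 5 genes whose levels moved most like those of OsRR4 over the 12 libraries of the pCPL and pOE tables, out of 14055 ranked, were LOC_Os09g29970, LOC_Os08g13990, LOC_Os06g09390, LOC_Os02g06520 and LOC_Os07g13170. The measure was the root mean square difference of log2(FPKM + 1), each gene centred within its table, and it was 0.046 to 0.056 for these 5. Their log2 fold changes were 0.47 to 0.59 in pCPL and -0.41 to -0.35 in pOE. The 5 genes were picked on these same libraries, so changes close to those of OsRR4 follow from the choice.

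The other steps of the cytokinin pathway were read from 6 lists of 43 loci, of which 39 were used. In YIL25, 2 of the 11 genes tested fell and none rose. In pCPL, 2 of the 26 genes tested rose and none fell, and in pOE, 2 rose and 8 fell. The shares of all genes called are those given above for the type-A genes. Levels of the 3 most abundant genes of each list follow, though not for every line. Genes named beyond these were chosen after their values were seen.

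**Figure D3:**
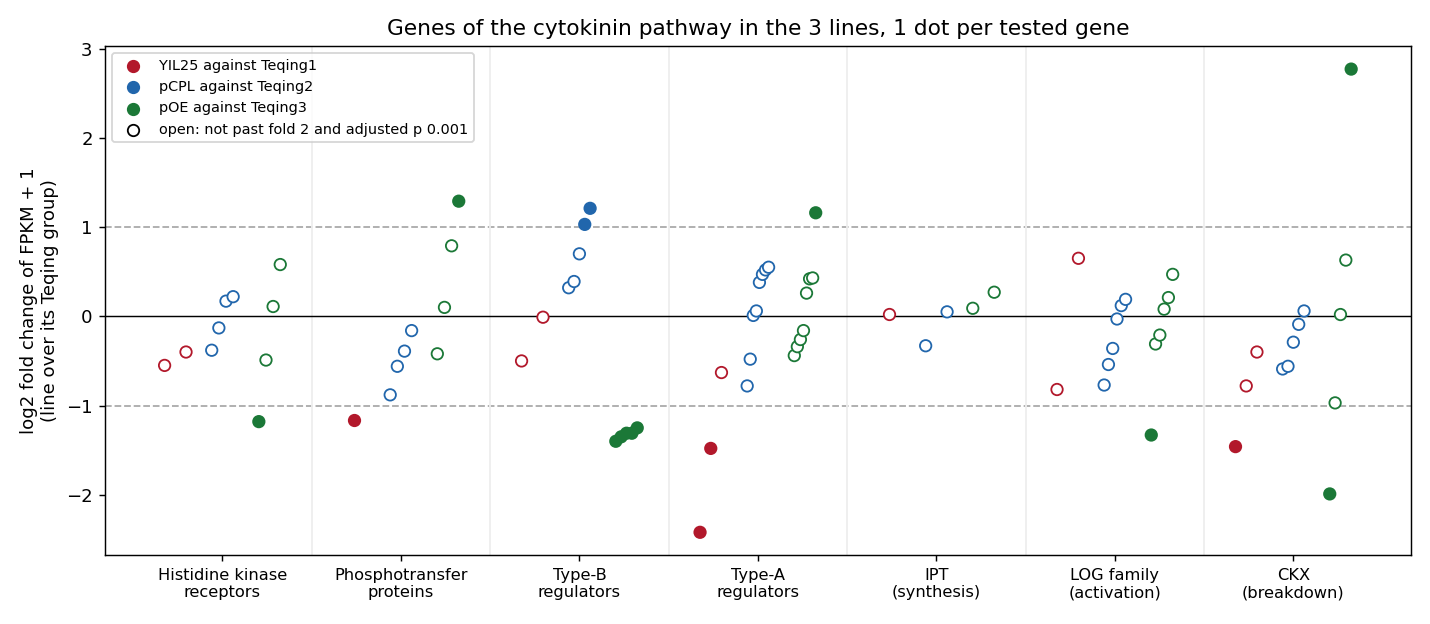
Fitted log2 fold change of FPKM + 1 (vertical axis) of each tested gene of the cytokinin pathway, by list (horizontal axis), for YIL25 over Teqing1, pCPL over Teqing2 and pOE over Teqing3. Filled dots passed a fold of 2 (dashed lines) and an adjusted p of 0.001, and the 5 type-B genes of pOE lie together between -1.40 and -1.25.

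Of the 6 type-B loci listed here, 5 were tested. All 5 fell in pOE, where 8.90% of all genes fell. In pCPL, 5 of 5 were higher at the weaker threshold (35.0% of all genes), and 2 of them, OsRR24 and OsRR26, rose (7.84% of all genes). OsRR21 (LOC_Os03g12350), the most abundant of the listed type-B genes, was at 19.0, 18.9 and 17.8 FPKM in pOE, against 49.0, 45.1 and 48.2 FPKM in Teqing3, and fell by 1.31 on the log2 scale (SE 0.0523, adjusted p = 3.53e-08 by limma). In pCPL it was at 46.8, 47.1 and 48.4 FPKM, against 35.4, 35.9 and 36.9 FPKM in Teqing2 (0.39, adjusted p = 1.63e-05 by limma). OsRR23 averaged 9.41 ± 0.634 FPKM in pOE and 24.7 ± 0.932 FPKM in Teqing3 (SD, n = 3 libraries), and OsRR26 2.33 ± 0.193 FPKM in pOE and 6.89 ± 0.378 FPKM in Teqing3. OsRR26 rose in pCPL, with 9.69, 9.31 and 10.2 FPKM against 3.66, 4.40 and 4.71 FPKM in Teqing2 (1.03, adjusted p = 8.20e-06 by limma), and fell short of a fold of 2 without replicate 1 of Teqing2 (0.95).

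In pOE the median log2 fold change was 0.05 for the 8 type-A genes tested and -1.31 for the 5 type-B genes tested. It was 0.22 and 0.70 for the same genes in pCPL. The summed level of the listed type-B genes was 31.6 to 32.9 FPKM in pOE, against 82.6 to 89.3 FPKM in Teqing3, and 84.1 to 86.4 FPKM in pCPL, against 59.0 to 61.1 FPKM in Teqing2. Here too the Teqing groups lay apart. The mean of pOE was 0.515 to 0.567 times that of Teqing2 for OsRR21, OsRR22, OsRR23 and OsRR26, and 0.826 times for OsRR24, and these ratios were not tested. The mean of pCPL was 1.0 times that of Teqing3 for OsRR21, 0.907 times for OsRR22, 0.846 times for OsRR23 and 0.931 times for OsRR24, and only for OsRR26 did it lie above, at 1.41 times, again with no test. Higher levels of the other 4 in pCPL thus held against Teqing2 and not against Teqing3. For OsRR24 the mean in Teqing3 was 7.15 times that in Teqing2. The study chose OsRR24 for a list of its own on these samples, so its direction is not independent evidence. In YIL25, OsRR23 was lower at the weaker threshold (12.7 FPKM, against 18.4 FPKM in Teqing1, adjusted p = 3.48e-04 by limma), and OsRR26 was at 5.74 FPKM, against 5.80 FPKM in Teqing1.

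Of the histidine kinase receptors, 1 of the 4 tested, OsHK3, fell in pOE and none changed past the threshold in pCPL or YIL25. OsHK3 was at 15.6, 16.3 and 17.0 FPKM in pOE, against 36.7, 38.1 and 40.1 FPKM in Teqing3 (-1.18, adjusted p = 1.00e-07 by limma), a change that was -0.94 with the trend on gene length removed. OsHK6 was at 17.3 FPKM in pOE, against 11.2 FPKM in Teqing3, and at 13.1 FPKM in pCPL, against 11.6 FPKM in Teqing2. OsHK5 was at 6.91 FPKM in pOE, against 10.1 FPKM in Teqing3, and at 7.84 FPKM in pCPL, against 8.68 FPKM in Teqing2. In YIL25, OsHK3 (33.3 FPKM, against 44.3 FPKM in Teqing1) and OsHK6 (8.97 FPKM, against 13.6 FPKM) were lower at the weaker threshold.

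Of the phosphotransfer proteins, which carry the phosphate from receptors to regulators, OsPHP1 fell in YIL25, with 28.6, 30.7 and 31.9 FPKM against 70.5, 69.1 and 68.4 FPKM in Teqing1 (-1.16, adjusted p = 2.12e-06 by limma). With median-of-ratios scaling it was at -0.97 and missed the fold. OsPHP1 averaged 55.8 FPKM in pOE, against 31.9 FPKM in Teqing3, and 31.1 FPKM in pCPL, against 46.4 FPKM in Teqing2, higher and lower at the weaker threshold. OsAHP1 averaged 40.7 FPKM in pOE, against 37.8 FPKM in Teqing3, and OsAHP2 41.6 FPKM in pOE, against 56.0 FPKM in Teqing3. In pCPL, OsAHP1 averaged 39.4 FPKM, against 51.6 FPKM in Teqing2, and OsAHP2 55.5 FPKM, against 62.2 FPKM. All 4 phosphotransfer genes tested in pCPL were lower at the weaker threshold, where 35.6% of all genes were. OsPHP2, outside the 3 most abundant, rose in pOE, with 9.28 FPKM against 3.18 FPKM in Teqing3 (1.29, adjusted p = 2.16e-06 by limma). In pCPL it averaged 3.55 FPKM, against 7.37 FPKM in Teqing2 (-0.88, adjusted p = 2.72e-05 by limma). Its mean in pOE was 1.26 times that in Teqing2, a ratio with no test, and its mean in Teqing3 was 0.431 times that in Teqing2.

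The listed loci of cytokinin synthesis (IPT) were scarcely expressed. RefSeq holds none of their names, so their locus numbers could not be checked by name. Of 8 loci, 2 were tested in pCPL and in pOE and none passed either threshold. OsIPT8 averaged 1.17 FPKM in pOE, against 1.05 FPKM in Teqing3, and 1.62 FPKM in pCPL, against 2.34 FPKM in Teqing2. OsIPT10 averaged 1.33 FPKM in pOE, against 0.910 FPKM in Teqing3, and OsIPT3 stayed under 1 FPKM in the 12 libraries of the pCPL and pOE tables.

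Of the LOG genes, which release active cytokinin from its nucleotides, LOG itself fell in pOE, with 9.87, 10.6 and 12 FPKM against 27.8, 29.3 and 28.7 FPKM in Teqing3 (-1.33, adjusted p = 2.68e-07 by limma). LOG averaged 20.6 FPKM in pCPL, against 30.5 FPKM in Teqing2, and 28.3 FPKM in YIL25, against 50.8 FPKM in Teqing1, lower at the weaker threshold in both. LOGL1 was higher at that threshold in YIL25, with 40.9 FPKM against 25.7 FPKM in Teqing1, and lower in pOE, with 12.8 FPKM against 16.1 FPKM in Teqing3. LOGL10 averaged 2.43 FPKM in pCPL, against 4.82 FPKM in Teqing2, and 2.21 FPKM in pOE, against 1.76 FPKM in Teqing3.

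Cytokinin oxidases (CKX) break the hormone down. OsCKX4 rose in pOE, with 17.5, 19.0 and 17.3 FPKM against 2.09, 1.72 and 1.5 FPKM in Teqing3, a ratio of 10.1 and a log2 fold change of 2.77 (SE 0.0993, adjusted p = 1.71e-08 by limma). Its mean in pOE was also 6.05 times that in Teqing2, a ratio with no test. In pCPL it was at 2.59, 2.02 and 2.1 FPKM, against 2.56, 2.81 and 3.51 FPKM in Teqing2, and the groups overlapped. OsCKX1, outside the 3 most abundant, fell in pOE, with 2.52 FPKM against 12.9 FPKM in Teqing3 (-1.99, adjusted p = 4.68e-08 by limma), and its mean in Teqing3 was 2.63 times that in Teqing2. OsCKX5 fell in YIL25, with 6.35, 5.21 and 5.45 FPKM against 16.1, 18.5 and 17.5 FPKM in Teqing1 (-1.46, adjusted p = 1.09e-05 by limma). In pCPL it was lower at the weaker threshold, with 8.55 FPKM against 13.1 FPKM in Teqing2 (-0.56, adjusted p = 1.93e-04 by limma). Its mean in pOE was 5.38 FPKM, against 5.32 FPKM in Teqing3. OsCKX11 averaged 17.1 FPKM in pOE, against 34.7 FPKM in Teqing3, just short of the fold on the fitted scale (-0.97), and 29.6 FPKM in pCPL, against 31.7 FPKM in Teqing2.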

How the data were processed

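RNA-seq was made from callus of 3 lines and 3 Teqing groups. Paired-end Illumina reads were mapped by the authors to IRGSP-1.0 with TopHat2, and the submitters' notes name CASAVA 1.8, bcl2fastq and Cufflinks. The authors deposited FPKM per gene in 1 table per comparison, each normalized separately. Their own fold changes and p-values, also in the tables, were not used. The YIL25 table covers chromosomes 1, 2 and the start of 3.

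Genes whose mean exceeded 1 FPKM in at least 1 group entered limma 3.58.1 (R 4.3.3, trended prior) on log2(FPKM + 1), with Benjamini-Hochberg adjustment over all genes tested. Differences between 2 effects came from 1 fit over the 12 libraries of both tables. Simulated data with known changes were used to test the fit. With 3 libraries per group, said by the study to be biological replicates, p-values measure the spread between these libraries. FPKM times gene length gave whole reads, within 0.1 read, for 94.4 to 95.7% of low values in the YIL25 table and 100% in the others, and these reads were tested with voom as an alternative. A gene with several entries was read from the one with the highest mean, and summing the entries was an alternative. Other alternatives were median-of-ratios scaling, other filters, a pseudocount of 0.1, a replicate block, a length trend (loess span 0.3) removed, libraries left out, and the other Teqing group.

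Members and lists were chosen with earlier results of these data known. Named pathway genes are the 3 of highest mean FPKM per list, and the genes like OsRR4 needed a mean of at least 5 FPKM. Locus numbers were matched to names in RefSeq (assembly ASM3414082v1, not the authors' build), which holds 9 of the 10 type-A names (not OsRR3) and 25 of the 43 pathway names at the same place. Dropped were 2 loci (LOGL3 and LOGL5) whose names RefSeq gives to other places, and OsPHP3 and OsCKX6 were not analysed here. The glutelin locus LOC_Os10g26060 was kept as a marker, although RefSeq gives that name to other places. Intervals and floors cover counting error only.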

Additional observations from a re-analysis of the deposited data

Results flagged for a closer look

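In 5 cases the effect of a line on a type-A gene differed from that of another line by a fold of 2 or more at an adjusted p under 0.001 in limma's test of the difference, where each effect was taken within its own table. Tested were 8 genes for pCPL minus pOE and 3 genes for each difference with YIL25. Of all loci, 32.8% differed at these thresholds for pCPL minus pOE, 19.0% for YIL25 minus pCPL and 37.8% for YIL25 minus pOE. For OsRR2, the effect in YIL25 minus that in pCPL was -2.89, and that in YIL25 minus that in pOE was -2.16. For OsRR3, the effect in pCPL minus that in pOE was -1.94, and that in YIL25 minus that in pOE was -2.64. For OsRR4, the effect in YIL25 minus that in pCPL was -1.15, or -0.97 with median-of-ratios scaling, short of a fold of 2. Each difference also rests on 2 Teqing groups, whose levels of these genes were not alike.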

How the results depend on the processing

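Of 511 values of single type-A genes under an alternative, 476 kept their direction and their side of the threshold, 5 lost the call, 10 gained one at an adjusted p of 0.05 and 20 reversed. The cause was not tested. Some of these settings could change little. The adjusted p of 0.05 used the same fit, and median-of-ratios scaling shifted the median by 0.00 in pCPL and pOE. Values against the other Teqing group had no test, so only their direction and fold were read. OsRR2 in YIL25 kept its call under every alternative run. An adjusted p of 0.05 with no fold gave 6 type-A calls in pCPL and 4 in pOE, and 8, 17 and 18 pathway calls in YIL25, pCPL and pOE, with 72.7, 70.6 and 72.1% of all genes. With no filter, 11.3% of all genes were called in YIL25. Median-of-ratios scaling moved the median of all genes in YIL25 by 0.17 and the higher share of calls to 52.8%, against 39.8%, with OsRR2 at -2.28, OsRR3 at -1.31 and OsRR4 at -0.45, and 1 pathway call. The same scaling, chosen for differences of effects after seeing the data, left 1 of 2 type-A genes that differed between YIL25 and pCPL. With the length trend removed there was 1 pathway call in YIL25 and 1 in pCPL, 0 type-A calls in pOE (OsRR3 at 0.99), and OsRR1 in pCPL was at -0.03. A filter at 5 FPKM left 1 pathway call in pCPL, and voom on reads gave 4 there and OsRR1 at -0.04, and called 27.8, 19.6 and 23.0% of all genes in YIL25, pCPL and pOE.

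With single libraries left out, type-A calls were 1 to 2 in YIL25 and 0 to 1 in pOE, and pathway calls in pCPL 1 to 2. OsRR1 in pCPL ranged from -0.03 to 0.06 and OsRR9 from -0.02 to 0.14, and the effect in pCPL minus that in pOE from -0.19 to 0.14 for OsRR5 and from -0.24 to 0.07 for OsRR10. Against the other Teqing group, OsRR2 was at -0.19, OsRR3 at 0.15, OsRR4 at -0.01 and OsRR9 at -0.06 in pCPL, and OsRR2 at 0.40, OsRR4 at 0.19 and OsRR6 at -0.10 in pOE. OsRR9 summed with OsRR10 was at -0.28 in pCPL. The correlations of same-numbered libraries were -0.03 to 0.01, so the numbers do not pair the samples. The replicate block left 2, 0 and 1 type-A calls in YIL25, pCPL and pOE and changed no call of a type-A gene at the fold of 2, while OsRR5 in pOE passed the weaker threshold with it (adjusted p = 0.0370 by limma). Low counts limit OsRR1, OsRR3 and OsRR5, and OsRR7 and OsRR11 could not be fitted.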

Other observations

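Some pathway genes under the filter on low values had groups that did not overlap, and these were not tested. OsCKX2, the cytokinin oxidase gene known for its effect on grain number, was at 0.994, 0.759 and 0.920 FPKM in pCPL, against 0.162, 0.154 and 0.138 FPKM in Teqing2, or 35, 27 and 34 reads in pCPL. In pOE it was at 0.433, 0.353 and 0.060 FPKM, against 0.0747, 0.0961 and 0.0931 FPKM in Teqing3, with groups that overlap. OsRR24 was at 0.486, 0.450 and 0.424 FPKM in YIL25, against 0.112, 0.0639 and 0.0719 FPKM in Teqing1. LOGL2 was at 0.290, 0.282 and 0.204 FPKM in YIL25, against 1.0, 0.716 and 0.691 FPKM in Teqing1.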
